A study of Drosophila melanogaster with 2 samples.

Results

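The cytosolic ribosomal protein genes were taken as the protein-coding genes whose symbol begins with RpL or RpS and a digit or with RpLP and a digit, together with sta, the gene of small subunit protein SA. The rule gave 93 of 13968 protein-coding genes, 54 of the large and 39 of the small subunit, and it used no measured value. They were examined in chromatin immunoprecipitation sequencing (ChIP-seq) of Usf, the fly upstream stimulatory factor, in whole Drosophila melanogaster embryos of mixed sex aged 0 to 16 hours. The embryos came from 1 transgenic strain that carries Usf with a green fluorescent protein (GFP) at its C terminus, and the fusion was captured with an antibody against GFP. There was 1 group with 2 biological replicates, numbered 3 and 4, and no condition was compared. Each value sums over all tissues of the embryo.

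Cytosolic ribosomes join a small subunit, which reads the mRNA, to a large subunit, which forms the peptide bond, and their proteins are needed in near equal amounts. Many fly ribosomal protein genes are Minute loci, where loss of one copy slows development and thins the bristles. Their promoters are known for a pyrimidine-rich start, in place of the usual initiator, and for the DNA replication-related element (DRE) and Motif 1, bound by DREF and M1BP. Usf proteins of vertebrates are basic helix-loop-helix leucine zipper factors that bind the E-box CACGTG.

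The files were lists of peaks on the dm6 genome, each peak with a summit and a signal value made by the authors. One list was cut at an irreproducible discovery rate (IDR), a measure of how well peak ranks repeat from replicate to replicate, and held 2767 peaks with signals of 71.3 to 1798. The relaxed lists, which also hold background, had 21315 peaks for the pooled reads, 28459 for replicate 3 and 29246 for replicate 4. The scaling of the signal is not stated and read depth is unknown, so signals are compared only inside a list, and values from both replicate lists are given side by side. No control library was analysed here. Per the deposited sample notes, one control alignment served for peak calling in both replicates.

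Start regions of 5 of the 6 ribosomal protein genes with the highest signal are shown first. Their summits lay upstream of the start, from −5 bp at RpS27 to −73 bp at RpL23A, the latter just outside the printed bases. Each run covers 70 bases before the annotated start site nearest to the summit and the first 20 bases from it, on the strand of the gene, so that the start is base 71. Capitals mark CTTTT or CTTTC at the start. The letters are from the RefSeq copy of the Release 6 genome, which shares its coordinates with dm6. RpS27 spans chr3R:25247495-25247584 (minus strand), RpL34b chr3R:9401207-9401296 (minus), RpL23A chr3L:1668635-1668724 (minus), RpL13A chr3R:5624404-5624493 (plus) and RpL28 chr3L:3222941-3223030 (minus).
RpS27: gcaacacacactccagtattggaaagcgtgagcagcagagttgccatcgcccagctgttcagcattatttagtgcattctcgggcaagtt
RpL34b: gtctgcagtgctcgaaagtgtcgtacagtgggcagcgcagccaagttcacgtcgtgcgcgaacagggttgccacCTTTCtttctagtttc
RpL23A: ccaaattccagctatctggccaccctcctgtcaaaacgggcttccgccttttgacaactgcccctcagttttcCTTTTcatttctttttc
RpL13A: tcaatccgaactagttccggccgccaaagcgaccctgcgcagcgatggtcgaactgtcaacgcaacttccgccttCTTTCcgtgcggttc
RpL28: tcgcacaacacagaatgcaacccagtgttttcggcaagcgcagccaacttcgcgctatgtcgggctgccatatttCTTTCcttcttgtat

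Most ribosomal protein genes carried a Usf-GFP peak at their start. In 62 of the 93 genes (66.7%) an IDR summit was no more than 1 kb away from an annotated transcription start site (TSS), against 15.3% of all protein-coding genes. The relaxed pooled list reached 86 members (92.5%), against 48.2% of all coding genes. In each replicate alone, taking as many of its strongest peaks as the IDR list holds, 58 members (62.4%) had a peak in replicate 3 and 65 (69.9%) in replicate 4. The shares of all coding genes were 15.1% in replicate 3 and 15.4% in replicate 4. These are descriptions beside a background, since genes are not replicates of an embryo collection.

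The large subunit had IDR peaks at 39 of 54 genes (72.2%) and the small subunit at 23 of 39 (59.0%). This gap depended on the list and the distance. In the relaxed pooled list the counts were 50 of 54 (92.6%) and 36 of 39 (92.3%). With IDR summits up to 2000 bp from a start they were 39 of 54 and 27 of 39. The median signal of the IDR peaks within 1 kb was 123.9 for the large subunit and 163 for the small one. The highest was 484.8 for the large subunit and 472.9 for the small one. Over all 62 members the median was 138.7, close to the 134.2 of 2069 other coding genes with an IDR peak. Of the 62 members, 4 (6.45%) ranked within the first 276 of the 2767 IDR peaks. The strongest 25% of the IDR list held 25 members (40.3%), and the first 1383 peaks held 34 (54.8%). Those 1383 peaks held 1253 of the 2131 coding genes with an IDR peak, members included, so members were not over-represented there. For the cuts at 276 peaks and at 25%, shares of other coding genes are not given, so they describe the members only. The best pooled rank was 87.

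**Figure D1:**
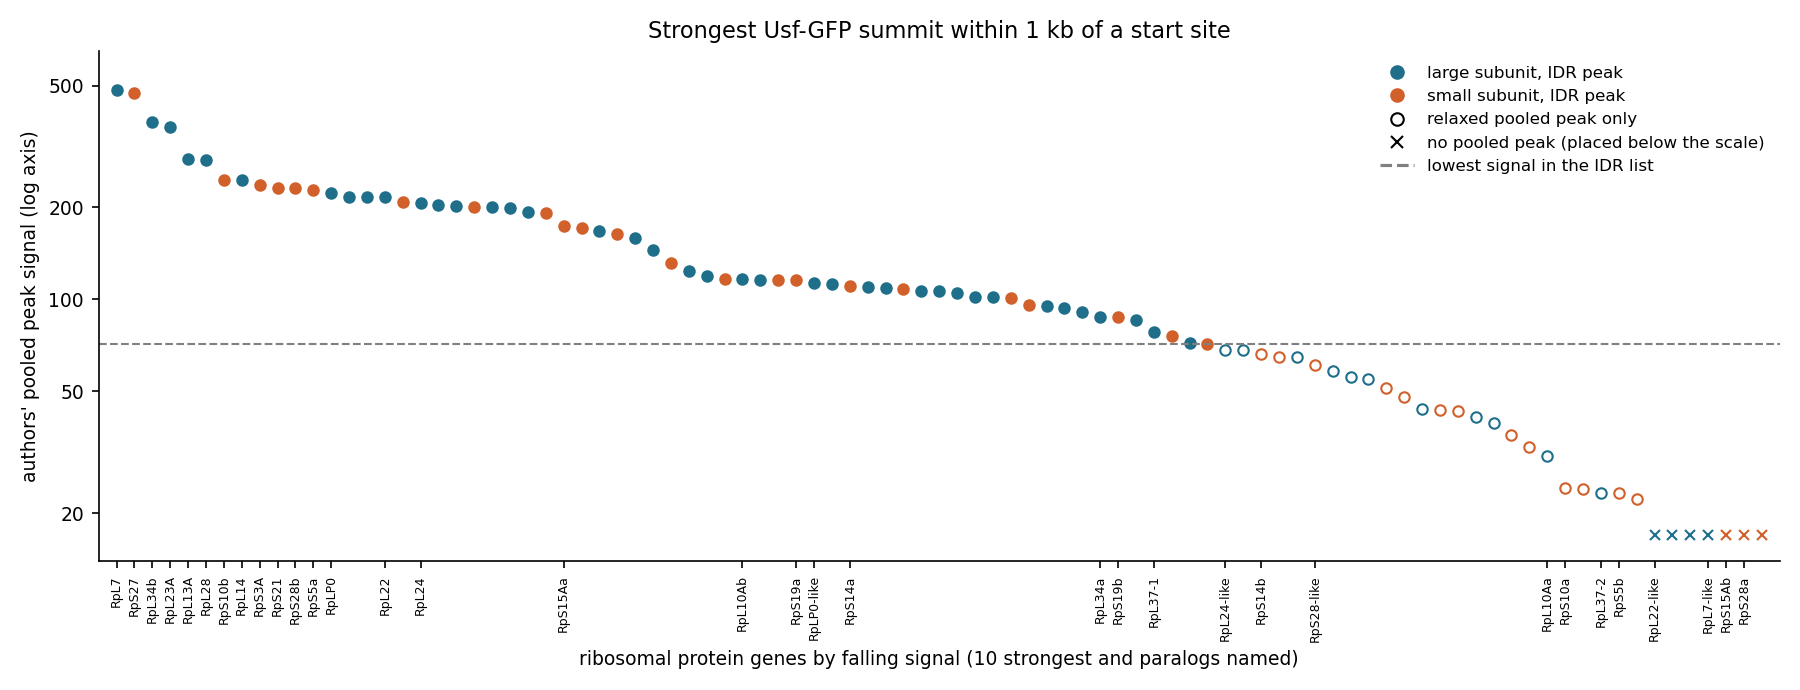
Authors' pooled signal (log axis) of the strongest summit within 1 kb of a start site for each of the 93 ribosomal protein genes, sorted by falling signal, with names at the 10 strongest genes and at paralogs. Filled points are the 62 genes in the IDR list, open points the 24 with a relaxed pooled peak only, crosses the 7 with none, and the dashed line is the lowest IDR signal, 71.3.

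The strongest members came from both subunits. RpL7, a large subunit protein, had signals of 242.9 in replicate 3 and 241.4 in replicate 4 and ranked 109 and 78 in those lists. RpS27, of the small subunit, had 222.4 in replicate 3 and 248.9 in replicate 4. RpL34b had 195.5 in replicate 3 and 185.6 in replicate 4. These 3 genes stood high in both replicates.

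RpL23A, whose protein lines the exit of the peptide tunnel, had 165.6 in replicate 3 and 202.6 in replicate 4. RpL13A had 149.6 and 138.5, and RpL28 had 151.2 and 128.6, in replicates 3 and 4. The next members in order of pooled signal were RpS10b at 246.5, RpL14 at 245.0, RpS3A at 237.4 and RpS21 at 231.6. RpS3A is the single member on chromosome 4. Among these 10 genes the lowest signal was 105.2 in replicate 3, at RpS3A, and 108.3 in replicate 4, at RpS21.

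Near the other end of the IDR list stood RpL36A (pooled signal 85.4), RpL37-1 (78.0) and RpL5 (72.3). RpL5 binds the 5S ribosomal RNA together with RpL11, whose own peak had a signal of 202.1. Just outside the list were RpL24-like (68.5), RpL35A (68.2), RpS14b (66.3), RpS2 (64.8) and RpL39 (64.7). All 5 had a summit in both replicates, with signals of 29.7 to 36.0 in replicate 3 and 25.2 to 39.6 in replicate 4. The boundary therefore ran through a continuous range of signals.

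The replicates ordered the members differently from other genes. Of the 62 peaks, 61 were matched in both replicate lists, and 54 ranked within the first 2767 of both. To compare ranks on one footing, peaks were ranked again among the 2615 IDR peaks found in both lists. There 49 of 61 member peaks (80.3%) ranked higher in replicate 4 than in replicate 3, against 660 of 1305 peaks (50.6%) of other coding genes. The median rank of member peaks was 1156 in replicate 3 and 865 in replicate 4, and that of the other peaks was 1077 in replicate 3 and 1096 in replicate 4. This comparison was chosen after the lists had been seen, and with 1 library for each replicate it has no test.

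**Figure D2:**
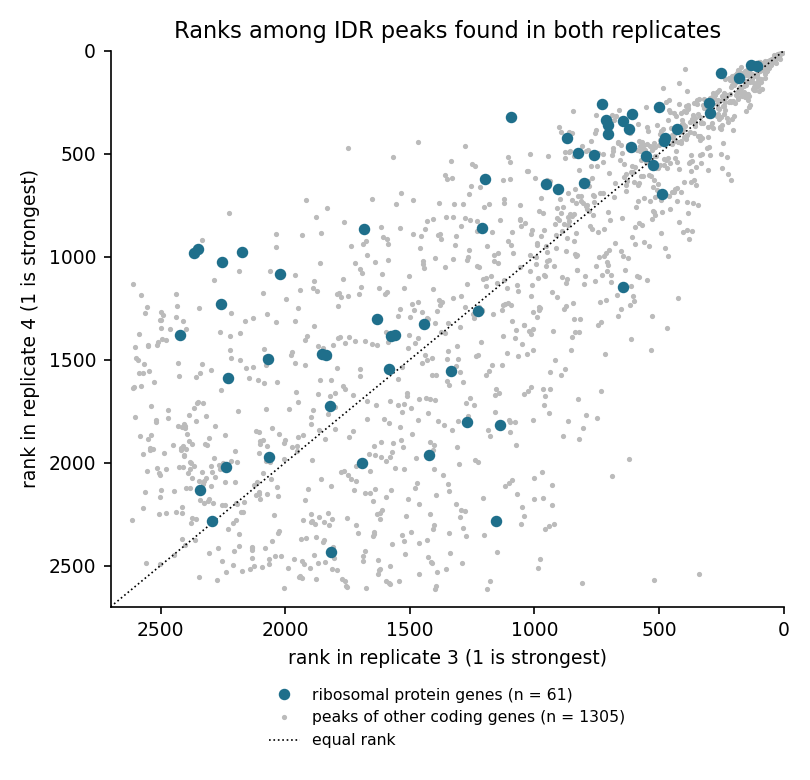
Rank in replicate 4 against rank in replicate 3 (1 is strongest, drawn at the upper right) among the 2615 IDR peaks found in both lists, for 61 peaks at ribosomal protein genes (blue) and 1305 at other coding genes (grey), with a dotted line of equal rank. Of the blue points 49 lie above the line, and of the grey points 660.

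RpS7 and RpL30 were among the members that ranked higher in replicate 4. Among those 2615 peaks RpS7 ranked 2348 in replicate 3 and 965 in replicate 4, and RpL30 ranked 1093 in replicate 3 and 322 in replicate 4. RpLP1, an acidic protein of the ribosomal stalk, ranked 1156 in replicate 3 and 2285 in replicate 4. RpLP2, its partner in the stalk, ranked 2422 in replicate 3 and 1382 in replicate 4. RpLP0, also of the stalk, ranked 620 in replicate 3 and 381 in replicate 4. Of these stalk genes only RpLP1 ranked lower in replicate 4, as did a minority of all member peaks. All the genes named here were chosen after their values were seen.

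Summits at ribosomal protein genes lay closer to the start site than those of other coding genes as a whole. The median signed distance was −41 bp, with quartiles of −76 and −14.25 bp, where negative is upstream. For other coding genes the median was −163 bp, with quartiles of −288 and −76 bp. The position was not particular to the ribosomal protein genes, since 9 other translation genes with an IDR peak had a median of −23 bp. A summit within 50 bp of the start was seen for 35 of 62 members (56.5%), against 8.94% of other genes, and within 100 bp for 51 (82.3%), against 22.4%. The share upstream was alike, 88.7% in members and 87.4% in other genes. Medians were −51 bp in the large subunit and −32 bp in the small subunit. More than 1 start was annotated for 48.4% of members and 26.5% of all coding genes, and with 1 start per gene the median distance of members was −38 bp.

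**Figure D3:**
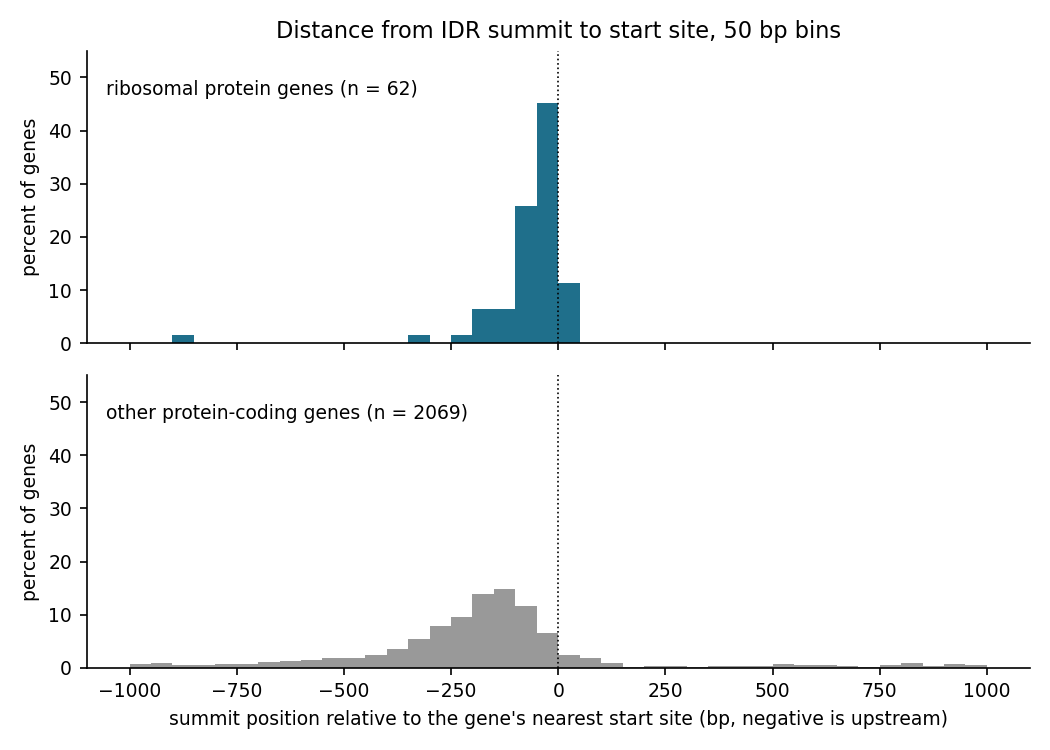
Distance from the IDR summit to the nearest start site of the gene (bp, negative is upstream), as percent of genes in 50 bp bins, for 62 ribosomal protein genes (upper panel) and 2069 other coding genes (lower panel). The upper panel has a narrow peak just before the start, with a median of −41 bp, and the lower one is broad, with a median of −163 bp.

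By annotation 44 of the 62 summits were intergenic, 15 lay in a 5′ UTR and 3 in an intron. The median width of the deposited peaks was 266.5 bp at members, with a range of 99 to 396 bp, and 396 bp at other coding genes. A width of exactly 396 bp recurred at many members with an IDR peak and at every member with a relaxed peak only. How widths were set is not stated, so they were not read as a trait of these promoters. Farthest from its start was the summit of RpS19b, a germline paralog in the fly, which lay at −886 bp and nearer to CG5854.

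Many member peaks also lay near a neighbouring gene. Of the 62 peaks, 43 (69.4%) had a start site of another coding gene within 1 kb, as did those of 62.8% of other genes with a peak. RpL7 shared its peak with Ripalpha, RpS27 with the nucleoporin gene Nup37 and RpL28 with the initiation factor gene eIF1. RpL36 shared its peak with Mybbp1A and RpL9 with the nucleoporin gene Nup154. The peak of RpL13 was shared with Dref, which encodes the factor that binds the DRE, and lay nearer to the start of Dref. The member's own start was the nearest coding start in 56 of 62 cases (90.3%), against 67.9% of other genes.

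A neighbour on the opposite strand, starting within 1 kb in the divergent direction, was present for 60.2% of the members and 36.2% of all coding genes. With such a partner 42 of 56 members (75%) had an IDR peak, against 27.3% of all coding genes with one. Without a partner the count was 20 of 37 members (54.1%), against 8.43% of all coding genes without one. Small nucleolar RNAs, which guide modification of ribosomal RNA, lay inside 29 members on the same strand. An IDR peak was found at 24 of these 29 hosts and at 38 of the 64 remaining members. Hosts among all coding genes were not counted, so the snoRNA split has no background. Both splits were made after the data were seen.

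Within paralog families the signal was usually uneven. There were 13 families with 27 genes. Of these genes 16 (59.3%) had an IDR peak, against 46 of 66 single-gene members (69.7%) and 15.3% of all coding genes. An IDR peak was found at exactly 1 gene in 10 families, and at every gene in RpL34, RpLP0 and RpS19. RpS5a had signals of 119.6 in replicate 3 and 106.9 in replicate 4. Its germline paralog RpS5b had 16.5 in replicate 3 and no replicate 4 summit within 100 bp of its pooled summit. RpS10b had 116.5 and 132.9 in replicates 3 and 4. RpS10a had 12.3 in replicate 4 and no replicate 3 summit within 100 bp of its pooled summit. RpL22 had 96.4 and 121.2 in replicates 3 and 4, while RpL22-like, known for its expression in the testis, had no summit within 1 kb in any list.

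RpL10Ab had a pooled signal of 116.2 and RpL10Aa 30.7. The RpL10Ab summit lay at −317 bp and was nearer to CG5946, at 259 bp. RpL37-1 had 78.0 and RpL37-2 23.4. RpS15Aa had 174.2, and RpS15Ab, whose protein is 97.7% identical, had no pooled peak. RpS28b had 231.2, RpS28-like 60.9 and RpS28a none. The RpS28-like summit lay 562 bp after its own start and 103 bp from the start of numb. In each of these families, therefore, 1 gene stood above the IDR limit and its relatives below it.

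In 3 families every gene had an IDR peak within 1 kb of a start. RpL34b had a pooled signal of 380.9 and RpL34a 87.7. The RpL34a summit lay at −173 bp and was nearer to Trmt61, at 56 bp. RpLP0, the base of the stalk, had 222.0, and RpLP0-like, the relative of yeast ribosome assembly factor Mrt4, had 112.8. RpS19a had 115.4 and RpS19b 87.4, RpS19b only through the summit nearer to CG5854. RpL7 and RpL24 had relatives of another kind, since RpL7-like and RpL24-like correspond to yeast ribosome assembly factors. RpL7-like had no pooled peak, and RpL24-like had 68.5, against 206.3 at RpL24. RpS14a (110.5) and RpS14b (66.3) encode identical proteins and start 1156 bp apart, so how reads were divided between them is uncertain.

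**Figure D4:**
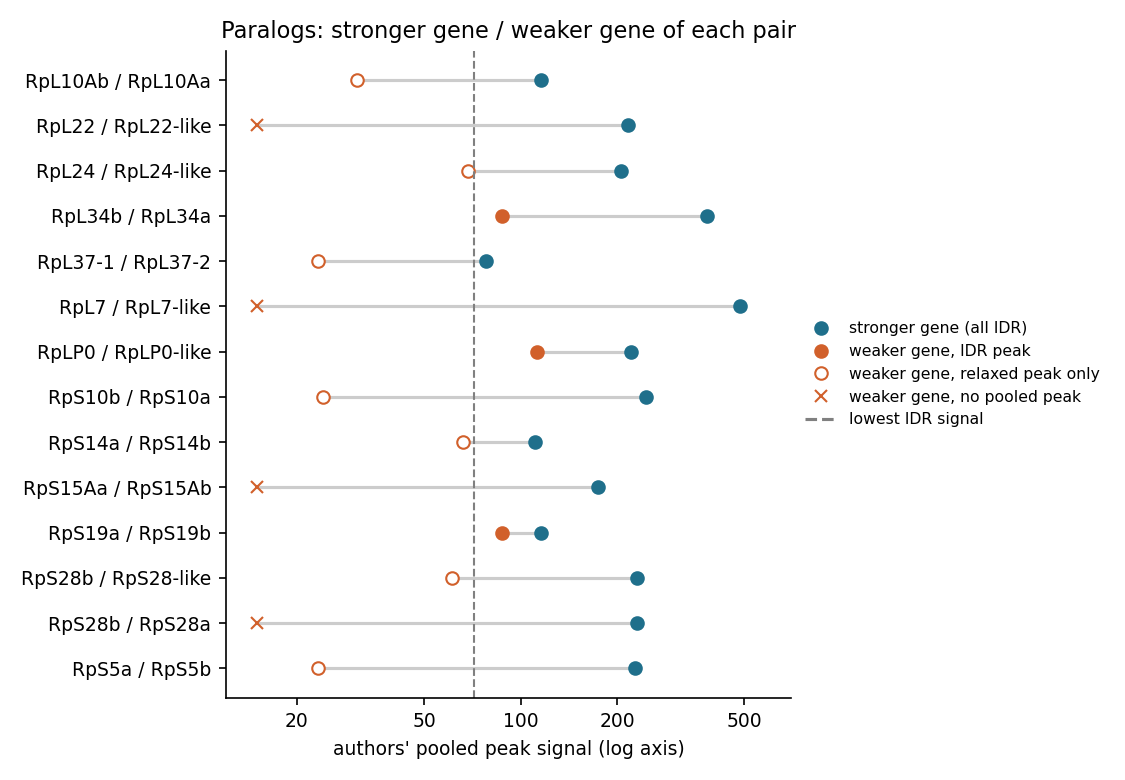
Pooled signal (authors' units, log axis) of the stronger gene (blue) and a weaker gene (orange) in each paralog family, with open points for a relaxed peak only, crosses, placed left of all values, for no pooled peak, and a dashed line at the lowest IDR signal. The stronger gene is above the line in all 13 families, and a weaker gene is above it in RpL34, RpLP0 and RpS19. Stronger and weaker were set by this same signal, so a gap between them is built in.

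The start regions of RpS5a and RpS5b are printed because both paralogs hold CTTTT at the start and had unlike signals. They were chosen after their values were seen. The summits, at −72 bp for RpS5a and 462 bp after the start for RpS5b, lie outside the printed bases. Capitals mark CTTTT at the start, base 71 is the start site, and the Release 6 positions are chrX:17148245-17148334 (minus strand) for RpS5a and chr3R:14901544-14901633 (minus) for RpS5b.
RpS5a: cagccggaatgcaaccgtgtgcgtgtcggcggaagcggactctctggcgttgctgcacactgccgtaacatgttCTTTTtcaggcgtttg
RpS5b: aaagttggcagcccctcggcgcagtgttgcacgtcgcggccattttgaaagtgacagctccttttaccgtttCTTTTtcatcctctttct

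The pyrimidine start was frequent in members whether or not they had a peak. CTTTT or CTTTC, on the strand of the gene between 5 bases before and 10 after any annotated start, was found in 64 of 93 members (68.8%), against 5.61% of all coding genes. It was found in 46 of the 62 members with an IDR peak and in 18 of the 31 without. With 1 start per gene, the 5′ end, the count was 38 (40.9%), against 3.82%. CTTTT alone had been listed at the outset, and CTTTC and the narrow window were chosen after 5 start motifs and a wider window had been looked at. In the wider window, 10 bases before to 15 after, the count was 78 (83.9%), against 9.93%.

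A minority of member summits held the E-box, and the count depended on the window. Of the 62 members, 5 (8.06%) held CACGTG no more than 100 bp from their summit, against 3.10% of peaks of other coding genes and 6.62% of such peaks within 100 bp of a start. The count was 3 with 50 bp to each side of the summit and 13 with 200 bp. The 5 were RpL7, RpS28b, RpL24, RpL11 and RpLP0-like. Their replicate signals ran from 67.3 to 242.9 in replicate 3 and from 44.5 to 241.4 in replicate 4, so the motif was present both at the strongest member and at one of the weaker ones.

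The E-boxes at RpL7, RpS28b and RpL24 are shown in capitals with 12 bases on each side, on the strand of the gene in Release 6. Those of RpL7 (chr2L:10201008-10201037, plus) and RpS28b (chrX:9554656-9554685, plus) are centred 19 and 48 bases after the start site nearest to the summit. That of RpL24 (chr2L:13395158-13395187, minus) is centred at −42 bases.
RpL7: tggcgcgcgtgtCACGTGtgcacgcatttc
RpS28b: aagcgcatcttgCACGTGaattctctgcga
RpL24: gcacgccttcggCACGTGgtggtatttttt

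The DRE and Motif 1 were more frequent at member summits than at other peaks. TATAAA was less frequent at member summits, and this did not hold over the promoter window. On either strand, TATCGATA was found at 16 of 62 member summits (25.8%), against 4.15% of other peaks and 8.71% of other peaks within 100 bp of a start. Its core ATCGAT, which lies inside it, was found at 21 (33.9%), against 11.3% and 21.6%. The Motif 1 core GGTCACAC was found at 9 (14.5%), against 2.32% and 6.27%. TATAAA was found at 11 (17.7%), against 38.6% and 35.9%. TATCGATA was added to the listed motifs after 16 motifs and all hexamers had been looked at around the summits.

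Promoters of members without an IDR peak held the same motifs. In the window of 150 bases before to 50 after 1 start per gene, TATCGATA was found in 30.6% of members with an IDR peak, 25.8% of members without one and 8.20% of all coding genes. Mitochondrial ribosomal protein genes held it in 20.5% and its core ATCGAT in 34.2%, beside 38.7% of all members for ATCGAT. For CACGTG the shares were 8.06%, 9.68% and 2.96% in the same order, for GGTCACAC 14.5%, 16.1% and 7.01%, and for TATAAA 29.0%, 32.3% and 32.6%. Over any annotated start, CACGTG was found in 15 of 93 members (16.1%), against 3.80% of all coding genes. A match is a match of letters only.

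**Figure D5:**
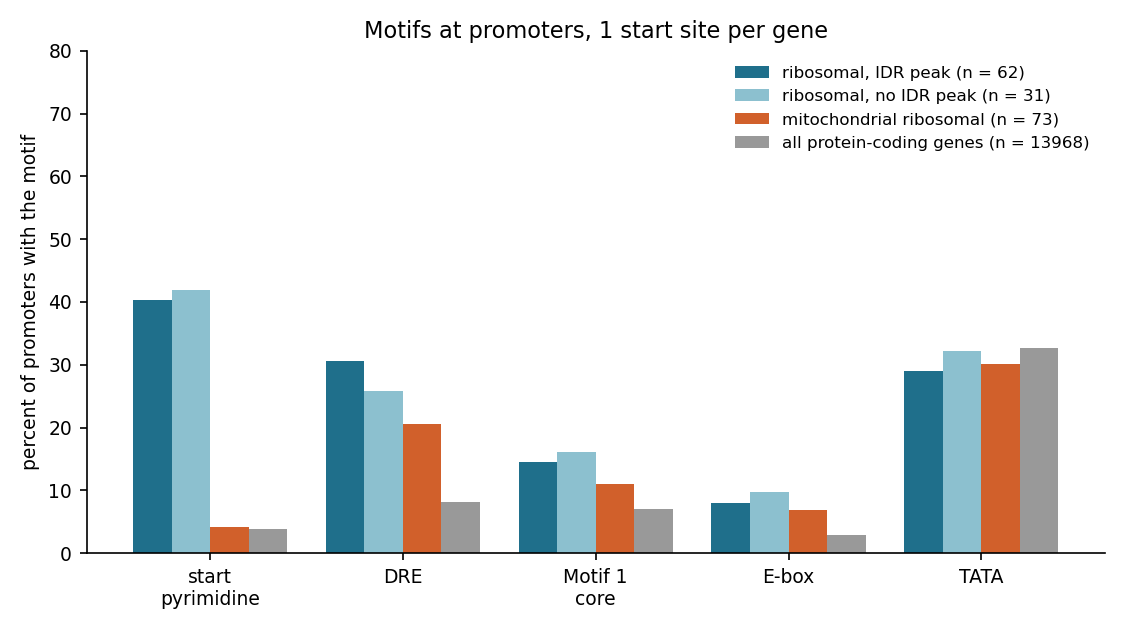
Percent of promoters, with 1 start site per gene, that hold each motif, for ribosomal protein genes with an IDR peak (62), those without (31), mitochondrial ribosomal protein genes (73) and all coding genes (13968). The start pyrimidine, CTTTT or CTTTC, is found in 40.3% and 41.9% of the ribosomal groups and in 4.11% of the mitochondrial one.

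GC content was higher at member summits than at other peaks. The median GC content of 101 bp at the summit was 47.5% in members, with a range of 26.7% to 62.4%. It was 32.7% at peaks of other coding genes and 37.6% at those of them within 100 bp of a start. In the promoter window, however, members with an IDR peak had a median of 41.5%, members without one 36.0% and all coding genes 39.5%. The part of base composition in the rank difference between replicates was not tested.

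Of the 31 members without an IDR peak, 24 had a relaxed pooled peak (77.4%), against 38.7% of other coding genes without an IDR peak. Their signals ran from 22.3 to 68.5, with a median of 43.7, against a median of 31.7 for the others. The summit lay within 100 bp of the start in 12 of the 24 (50%), against 19.4%, and 13 were matched in both replicates. Among them were RpL3, whose protein reaches the peptidyl transferase centre, with 23.1 in replicate 3 and 25.0 in replicate 4, and sta, with 21.0 in replicate 3 and 23.6 in replicate 4. RpS6, the target of S6 kinase, had a pooled signal of 36.0 and no replicate 3 summit within 100 bp of its pooled summit. RpS24, RpS5b, RpL37-2 and RpS10a had pooled signals of 22.3 to 24.2 and summits 462 bp or more from the start.

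No pooled summit lay within 1 kb of 7 members, RpL6, RpL40, RpS9, RpS28a, RpS15Ab, RpL22-like and RpL7-like. RpL40 encodes a fusion of ubiquitin with a large subunit protein, as RpS27A does with a small subunit protein, and RpS27A had a pooled signal of 192.3. RpL40 had weak summits in both replicate lists, with signals of 15.8 in replicate 3 and 16.1 in replicate 4. RpL6 had one of 20.1 in replicate 3 alone, and RpS9 one of 16.8 in replicate 4 alone. RpS28a and RpS15Ab had one in replicate 4 alone, and RpL22-like and RpL7-like had none in either. The nearest pooled summit was 1234 bp away at RpS28a and 7352 bp at RpL22-like.

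Other genes of translation fell on both sides. Of 15 listed genes of elongation, initiation and nascent chain handling, 9 had an IDR peak (60.0%), with a median distance of −23 bp. They included eEF1gamma (267.5), eEF1alpha1 (190.5), Rack1 (169.9), which sits on the small subunit, and eIF6 (746.1), which keeps the subunits apart. Tctp (40.1) and eIF4A (61.9) had relaxed peaks only. The 73 mitochondrial ribosomal protein genes had an IDR peak in 15 cases (20.5%), with a median distance of −166 bp and 4 of the 15 within 100 bp of the start.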

How the data were processed

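The authors' deposited narrowPeak lists on dm6 were used, with their signal value and summit. For the aligner, peak caller and IDR cut-off, the version and settings were not given in the sources used. Chromatin was sheared to 200 to 800 bp, per the labels. Genes were taken from Ensembl release 115 (FlyBase 6.54), chromosome arms only. For each gene the strongest summit within 1000 bp of any TSS was kept, and summits within 100 bp were matched between lists. For members without a pooled summit, replicate summits within 1000 bp of any TSS were taken instead. Motifs were counted in 201 bp and GC in 101 bp at the summit. Protein identity came from translated coding sequences. Python 3.11.15, pandas 2.3.3, numpy 2.4.6 and Biopython 1.88 were used, and distance and matching steps were tested on simulated data. No test across genes was run.

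The members, gene lists and motifs were chosen with earlier results of these data known. Values by replicate were to be given for the 10 strongest members, paralogs, members with CACGTG at the summit, and the 5 members on each side of the IDR limit; results of some of these members are not reported here. The start region of RpL7 was left out because most of it is 5′ UTR of RpL7 or, on the other strand, of its neighbour Ripalpha.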

Additional observations from a re-analysis of the deposited data

How the results depend on the processing

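The count of members with an IDR peak, 62, ranged from 58 to 65 when only one replicate's list was used (large subunit 38 to 42, small subunit 20 to 23, all coding genes 2112 to 2155). In the strongest 1383 peaks of the IDR list the count was 34, with 21 large and 13 small subunit genes and 1253 of all coding genes, since that list holds fewer peaks. CACGTG was found at 3 member summits with 50 bp to each side and at 13 with 200 bp, windows that are shorter and longer by construction. With 1 start per gene, CTTTT was found in 18 members instead of 36 and CTTTT or CTTTC in 38 instead of 64, alternatives chosen after seeing the data. The share of members with an IDR peak, and with CTTTT or CTTTC, stayed above that of all coding genes under the settings tried. For CACGTG at summits, signal, distance and peak sharing, the other settings gave member values only. A direction against other genes cannot be given there. No paired analysis was possible because there was 1 group. Read depth is unknown and limits every absence of a peak.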
